A study of Rattus norvegicus with 2 samples.

Results

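Sucrase-isomaltase (Si), maltase-glucoamylase (Mgam), lactase (Lct), trehalase (Treh), the sodium-glucose cotransporter SGLT1 (Slc5a1), the fructose transporter GLUT5 (Slc2a5), the glucose and fructose transporter GLUT2 (Slc2a2) and ketohexokinase (Khk) were examined in single epithelial cells of the rat proximal jejunum. These 8 genes were selected by symbol from the 32883 genes of the deposited matrices, where each symbol had 1 row, and all 8 had transcripts in both animals. The identifiers in the files were ENSRNOG00000031067 for Si, ENSRNOG00000026177 for Mgam, ENSRNOG00000003681 for Lct, ENSRNOG00000052010 for Treh, ENSRNOG00000017775 for Slc5a1, ENSRNOG00000017693 for Slc2a5, ENSRNOG00000011875 for Slc2a2 and ENSRNOG00000008047 for Khk.

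Both samples were untreated male Sprague Dawley rats, an outbred laboratory strain, 6 to 8 weeks old and 180 to 200 g by the sample labels, fasted overnight before tissue collection. Epithelium was released with EDTA and dispase, and each rat gave 1 droplet-based 3′ library in which a unique molecular identifier (UMI) marks each captured transcript. There was a single condition, so the comparisons are between cell classes, with the rats as replicates (n = 2). After filtering, 5988 cells of rat 1 (median 12200 UMIs) and 2230 cells of rat 2 (median 13962 UMIs) remained, and 4 barcodes were shared between the retained cells of both libraries.

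Dietary disaccharides are split at the brush border of villus enterocytes. Sucrase-isomaltase and maltase-glucoamylase cleave sucrose and starch products, lactase cleaves milk sugar, and trehalase cleaves trehalose. SGLT1 takes up glucose and galactose with sodium across the apical membrane, GLUT5 takes up fructose, GLUT2 carries hexoses across the basolateral membrane, and ketohexokinase phosphorylates fructose as the entry step of fructose metabolism. Enterocytes are born in crypts and mature as they migrate up the villus, while goblet, Paneth, enteroendocrine and tuft cells form the secretory lineages.

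Promoter sequence was available for 7 of the 8 genes in the RefSeq table of the GRCr8 build, which is not the Rnor6 build of the counts. Short motifs associated with intestinal transcription factors were searched on both strands in the 250 bases before each annotated start. A core bound by the intestinal factor Cdx2, TTTATG, was found for Si and Lct only, and for 11.4% of all 33469 promoters. The shorter string TTTAT was found for Lct, Mgam, Si and Slc2a5 and for 39.3% of all promoters. The motif GTTAAT was found for Si and for 6.45% of all promoters. A core of GATA factors, AGATAA, was found for Lct and Mgam and for 10.3% of all promoters. Part of the site of HNF4, CAAAGG, was found for Khk, Mgam and Slc2a5 and for 16.9% of all promoters. Si and Lct are shown because the 2 genes carried the same motif at the same distance from the annotated start but differed in their course through enterocyte maturation. The 100 bases before each annotated start are written on the strand of the gene, with the Cdx2 core or its reverse complement in capitals, beginning at position -45 from the start in both. The Si segment lies at chr2:159884903-159885002 and the Lct segment at chr13:42376873-42376972, both on the minus strand of GRCr8.
Si: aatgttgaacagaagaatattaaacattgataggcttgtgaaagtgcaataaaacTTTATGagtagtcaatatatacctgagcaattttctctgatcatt
Lct: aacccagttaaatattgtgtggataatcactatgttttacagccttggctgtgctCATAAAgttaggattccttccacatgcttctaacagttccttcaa
A match describes these letters only and was not tested as a binding site.

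Cells were clustered without the 8 genes and without the other sugar pathway genes, so that none of them placed its own cell. The named classes were crypt-like cells (1174 cells in rat 1 and 37 in rat 2), enterocytes, secretory progenitor-like cells (185 and 16), goblet/Paneth-like cells (117 and 30), goblet-like cells (48 and 107), enteroendocrine (EEC)-like cells (21 and 11), tuft-like cells (15 and 122) and CFTR High Expressor (CHE)-like cells (8 and 76). Enterocytes were ordered within each rat by a villus program of 10 genes that holds none of the sugar genes, and were divided into early, mid and late groups of equal size, with 1153 to 1154 cells each in rat 1 and 363 to 364 in rat 2. Among the genes that led the crypt-like clusters were also the lymphocyte genes Cd3g, Gzma and Xcl1 and Paneth defensins, and summed leukocyte markers in crypt-like cells were 299 UMIs per 1000000 UMIs (CPM) in rat 1 and 1093 CPM in rat 2. Levels are given as CPM of the summed UMIs of a class in 1 rat. Free RNA gives some UMIs to every droplet, and its level was read in 230 leukocyte-like cells of rat 2 that had at most 10 epithelial UMIs. Their median was 5811 UMIs, against 17088 in crypt-like cells of rat 2. The same number of free UMIs is a higher CPM in a shallower cell. The cells were also chosen by their low epithelial counts. A level at or below this background in CPM is therefore not evidence that a gene was silent. Rat 1 had only 7 such cells. Other leukocyte-like droplets, mostly those of rat 1, carried enterocyte RNA (Si at 1080 CPM over all 256 such cells) and do not measure this background.

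All 8 genes were higher in enterocytes than in crypt-like cells, in both rats. Their log2 fold changes ranged from 2.89 for Khk to 8.29 for Treh, with a median of 5.89 against -0.07 for all 9251 genes tested. All 8 passed the threshold (edgeR quasi-likelihood test, Benjamini-Hochberg adjusted p of at most 0.05), where 49.9% of all genes were called, 21.9% higher in enterocytes and 28% lower. All 8 were also higher in enterocytes than in differentiated secretory cells, with log2 fold changes from 4.56 for Mgam to 7.0 for Slc2a5 and a median of 5.38 against 0.11 for all genes. In that comparison 37.3% of genes were called, 24.9% higher in enterocytes and 12.5% lower. These p-values rest on 2 animals and measure the spread between the sums of 2 rats. Fold changes of the tests are on the scale of TMM factors, which correct for RNA composition and raised enterocytes over crypt-like cells by 0.67 (rat 1) and 1.23 (rat 2) on the log2 scale relative to CPM, over secretory cells by 0.41 and 0.67, and late over early enterocytes by 0.45 and 0.75. All 8 genes were higher in enterocytes than in both other classes by more than these shifts. Crypt-like cells of rat 2 were few, and the sum of this class in rat 2 held 663582 UMIs. The crypt-like clusters held 25, 74, 20 and 13 cells of rat 2 before those with at most 10 epithelial UMIs were left out. The 37 cells kept held erythroid markers at 8802 CPM, tuft markers at 517 CPM and EEC markers at 341 CPM. In rat 1 these sums were 256, 5.22 and 44.1 CPM. The part of such mixture in the comparison was not tested.

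**Figure D1:**
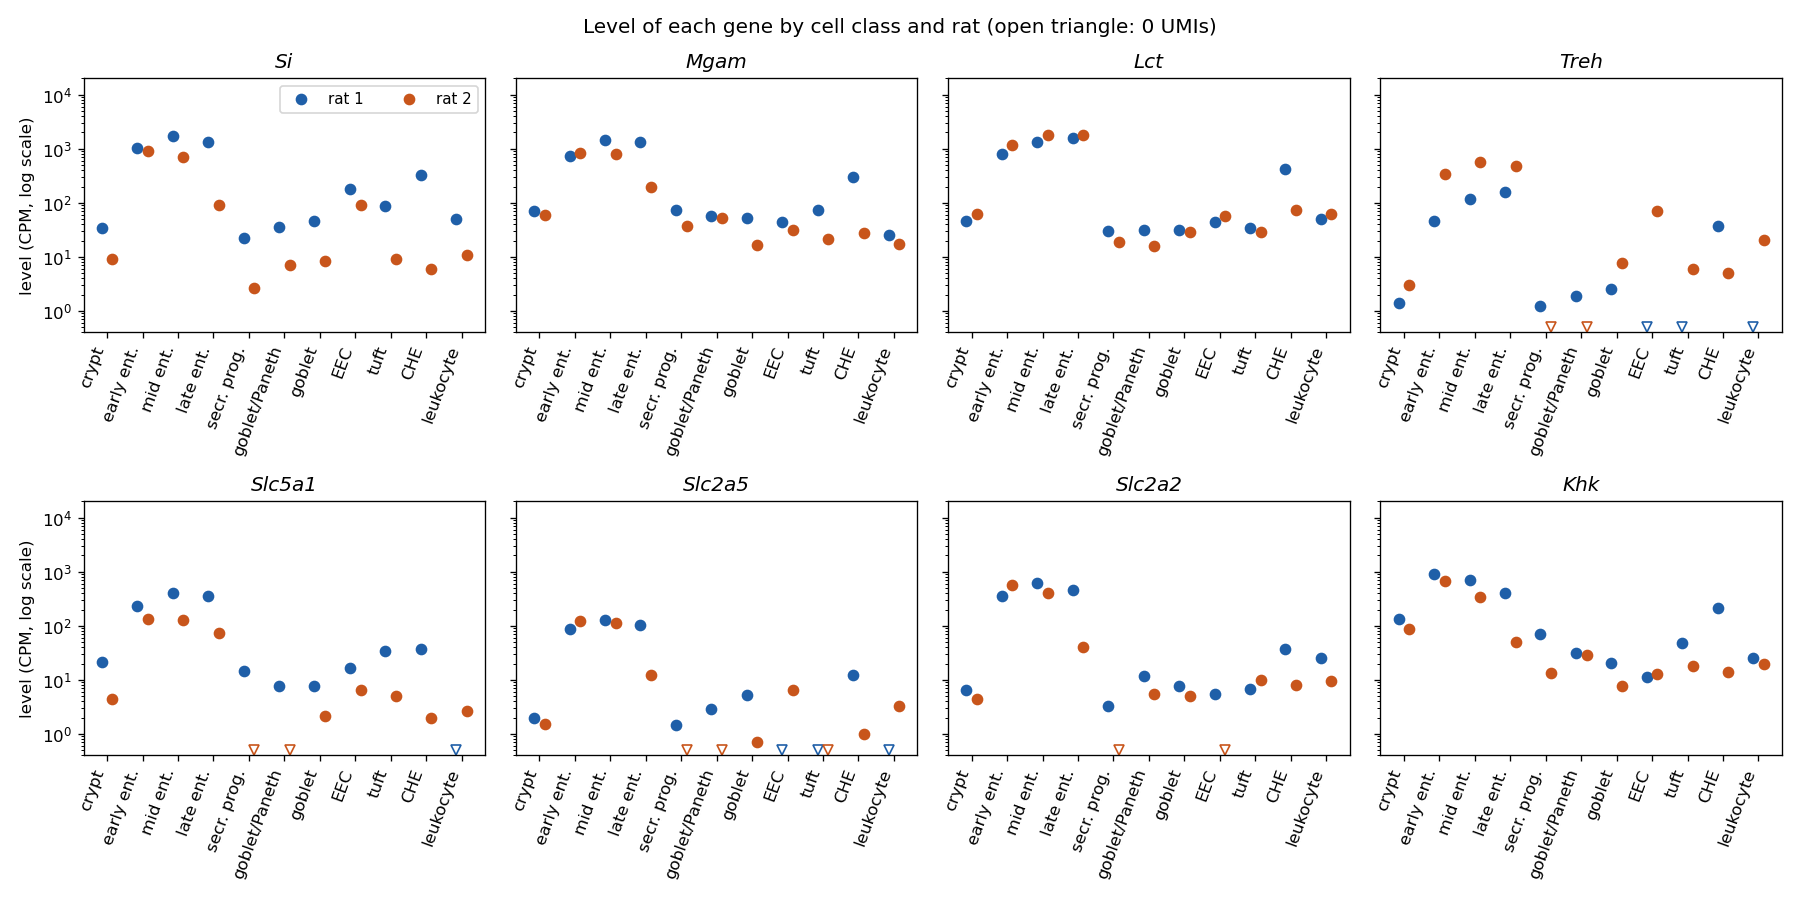
Level of each gene (CPM, log axis) in each cell class, with 1 point per rat; open triangles at the bottom mark classes with 0 UMIs, and leukocyte stands for the leukocyte-like cells with at most 10 epithelial UMIs. The 3 enterocyte groups are the highest of the plotted epithelial classes for 7 of the 8 genes in both rats. Khk is the exception, because late enterocytes of rat 2 (50.5 CPM) are below crypt-like cells (87.4 CPM), an order that turned around on the TMM scale of the tests (103 and 56.8).

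Si, the brush border hydrolase of sucrose and isomaltose, was measured in crypt-like cells at 33.7 CPM (rat 1) and 9.04 CPM (rat 2). In rat 1 it was at 1012 CPM in early, 1709 in mid and 1348 in late enterocytes, whereas in rat 2 it was at 896 CPM in early, 692 in mid and 92.9 in late enterocytes. Every enterocyte value was above both crypt values, and the log2 fold change was 6.15 ± 1.63 (SE, edgeR quasi-likelihood test, adjusted p = 0.00586). The late groups of the 2 rats lay on either side of the early groups. Si in crypt-like cells of rat 2 did not exceed the leukocyte-like background of 10.7 CPM (95% interval 6.13 to 17.4, counting error only, as for all intervals below).

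Mgam, which releases glucose from starch oligosaccharides, had 69.6 and 58.8 CPM in crypt-like cells of rats 1 and 2. The value of rat 2 was above the background of that rat, 17.4 CPM (11.4 to 25.5). The 7 background cells of rat 1 (25.5 CPM, 0.65 to 142) were too few to place the value of rat 1. It was at 737, 1433 and 1323 CPM in early, mid and late enterocytes of rat 1 and at 843, 800 and 195 CPM in those of rat 2. Enterocyte and crypt values did not overlap, and the log2 fold change was 4.63 ± 0.94 (SE, edgeR, adjusted p = 0.000901). As for Si, the late enterocytes of rat 2 were the lowest of the 6 enterocyte groups.

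Crypt-like cells had 46.8 CPM of Lct in rat 1 and 61.8 CPM in rat 2, and the latter was no higher than the background of 62.3 CPM (50.3 to 76.4). In enterocytes of rat 1 it was at 801 CPM early, 1346 mid and 1572 late, and in those of rat 2 at 1175 CPM early, 1766 mid and 1765 late. The order was the same in both animals between early and mid cells, and late cells were not below early cells in either rat. Enterocytes exceeded crypt-like cells by 5.64 ± 0.70 on the log2 scale (SE, edgeR, adjusted p = 2.51e-05).

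Treh, which splits trehalose, had 1.39 CPM in crypt-like cells of rat 1 (25 UMIs) and 3.01 CPM in the same cells of rat 2 (2 UMIs, 0.37 to 10.9). In enterocytes it was at 45.4, 119 and 156 CPM from early to late in rat 1 and at 342, 563 and 478 CPM in rat 2. The 3 values of rat 2 were all above the 3 values of rat 1, a difference between 2 animals that has no test. The log2 fold change over crypt-like cells was 8.29 ± 1.52 (SE, edgeR, adjusted p = 0.00043), and it was 7.26 ± 0.83 with the rat as a block. The former is above both rats taken singly (6.28 and 8.16 with a prior count of 2).

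Among the transporters, Slc5a1 in crypt-like cells was at 21.6 CPM (rat 1) and 4.52 CPM (rat 2, 3 UMIs). In enterocytes it was at 232, 409 and 351 CPM from early to late in rat 1 and at 133, 127 and 72.4 CPM in rat 2, so that rat 2 was below rat 1 in each group. Against crypt-like cells, enterocytes were higher by 4.67 ± 1.13 on the log2 scale (SE, edgeR, adjusted p = 0.00328). Among cells thinned to 5000 UMIs, 10.2% of crypt-like cells of rat 1 and 2.70% of those of rat 2 (0.068 to 14.2) had a Slc5a1 UMI, and the latter could not be told from the 1.74% of background cells of rat 2 (0.48 to 4.39).

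Crypt-like cells had 36 UMIs of Slc2a5 in rat 1 (2.00 CPM) and 1 UMI in the other rat (1.51 CPM). It was at 87.5, 131 and 104 CPM in early, mid and late enterocytes of rat 1 and at 124, 111 and 12.5 CPM in those of rat 2. The log2 fold change was 6.34 ± 0.95 (SE, edgeR, adjusted p = 0.000112), and no enterocyte value overlapped a crypt value. The late value of rat 2 (9.81 to 15.7) was still above the background of 3.35 CPM (1.09 to 7.82).

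Slc2a2 in crypt-like cells had 6.39 CPM (rat 1) and 4.52 CPM (rat 2, 3 UMIs), both below or within the background interval of rat 2 (5.13 to 15.7). In rat 1 its level was 361 CPM in early, 616 in mid and 468 in late enterocytes, and in rat 2 it was 557 CPM in early, 410 in mid and 40.4 in late enterocytes. Enterocytes differed from crypt-like cells by 6.89 ± 0.98 on the log2 scale (SE, edgeR, adjusted p = 5.85e-05). Late enterocytes of rat 2 remained above its background.

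Khk, the kinase that commits fructose to breakdown, had the smallest enterocyte to crypt difference of the 8 genes. Its level in crypt-like cells was 131 CPM (rat 1) and 87.4 CPM (rat 2, 66.4 to 113), against a background of 19.4 CPM (13.0 to 27.9) in rat 2. Enterocytes of rat 1 had 924 CPM early, 714 mid and 397 late, and enterocytes of rat 2 had 670 CPM early, 337 mid and 50.5 late. Levels were in the order early, mid, late in both rats. The log2 fold change over crypt-like cells was 2.89 ± 0.91 (SE, edgeR, adjusted p = 0.0159), although the late enterocytes of rat 2 were below the crypt-like cells of the same rat in CPM. On the TMM scale this order turned around, with 103 per 1000000 in late enterocytes and 56.8 in crypt-like cells.

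Khk and Mgam UMIs were also seen where stem markers were highest. The crypt-like cluster with the highest stem marker level, led by defensins and Olfm4, held 402 cells in rat 1 and 14 in rat 2. Khk levels were 75.3 and 63.6 CPM in the 2 rats, and Mgam levels 66.5 and 59.0 CPM, whereas Treh, Slc2a5 and Slc2a2 were each at or below 7.85 CPM in both rats. The 14 cells of rat 2 also held erythroid markers at 26438 CPM (143 in rat 1) and tuft markers at 336 CPM (0.60 in rat 1), whose part in these levels was not tested. The Mgam level was not particular to this cluster in rat 1. There Mgam was between 44.4 CPM (EEC-like) and 74.3 CPM (tuft-like) in the secretory classes other than CHE-like cells (298 CPM). In rat 2 the differentiated secretory classes had 16.3 to 52.3 CPM of Mgam. After thinning to 5000 UMIs, 39.0% of all crypt-like cells of rat 1 (median 13174 UMIs before thinning) and 24.3% of those of rat 2 (median 17088 UMIs) had a Khk UMI, against 10.0% of the leukocyte-like background cells of rat 2 (median 5811 UMIs). Without thinning these shares were 67.1%, 56.8% and 11.7%. In rat 2, where both come from 1 library, the intervals of the thinned shares overlapped (11.8 to 41.2 and 6.45 to 14.6) and those of the levels in CPM did not.

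A cluster of 538 cells in rat 1 and 32 in rat 2 reached no name from its markers and was led by Pycard, Gsta3 and Bcl2l15. Its Khk levels, 455 and 637 CPM in rats 1 and 2, lay between crypt-like and early enterocyte levels. Lct was at 191 and 523 CPM and Si at 158 and 366 CPM in these cells, below their levels in early enterocytes of the same rat. In rat 1, Slc2a2 was at 13.4 CPM (10.9 to 16.3) in this cluster, or 100 UMIs beside 3393 UMIs of Khk, and in rat 2 it was at 108 CPM (86.3 to 133), or 88 UMIs. These cells entered no test.

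In the secretory classes the levels of the 8 genes were compared with the background. In rat 2, Lct ranged from 16.2 to 75.1 CPM over the 5 differentiated secretory classes, against a background of 62.3 CPM, and Khk from 7.79 to 28.8 CPM, against 19.4 CPM. Slc2a2 ranged from 0 UMIs in EEC-like cells (95% interval up to 23.7 CPM) to 10.2 CPM in tuft-like cells, against 9.38 CPM. Mgam was above its background of 17.4 CPM (11.4 to 25.5) in goblet/Paneth-like cells of rat 2, at 52.3 CPM (35.0 to 75.1), and was at 55.9 CPM in those of rat 1. In rat 1, the highest value of each gene came from the CHE-like cells, of which there were only 8 (Si 323 CPM, Lct 422 CPM and Khk 211 CPM). The 76 CHE-like cells of rat 2 had 5.93 CPM of Si, 75.1 CPM of Lct and 13.8 CPM of Khk. Doublets and free RNA in these 8 cells were not tested.

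Si had a higher level in EEC-like cells of rat 2 than in its background. The 21 cells of rat 1 held 33 Si UMIs, or 183 CPM (126 to 257), and the 11 cells of rat 2 held 14, or 89.8 CPM (49.1 to 151). In rat 2 this interval lay above that of the leukocyte-like background (6.13 to 17.4). After thinning, a Si UMI was seen in 52.4% of the former and 27.3% (6.02 to 61.0) of the latter, and 76.2% and 36.4% did before thinning. In rat 2 the background share was 4.35% after thinning (2.10 to 7.85, which overlaps the interval of EEC-like cells), and median depths were 12853 UMIs in EEC-like and 5811 UMIs in background cells. Treh was at 70.6 CPM in EEC-like cells of rat 2 (35.2 to 126, 11 UMIs) but at 0 UMIs in those of rat 1, where the 95% interval reaches 20.5 CPM. Other enterocyte transcripts were also higher in these cells of rat 2, where 6 enterocyte markers summed to 5971 CPM, against 2387 CPM in the background cells, and their part in the Si level was not tested. The number of EEC-like cells is small, and no test was made within the secretory lineage.

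The comparison of enterocytes with the mean of the 5 differentiated secretory classes gave the following sizes. The log2 fold change was 4.61 ± 0.76 for Si, 4.56 ± 0.48 for Mgam, 5.39 ± 0.34 for Lct and 5.97 ± 0.70 for Treh (SE, edgeR, adjusted p from 8.91e-08 for Lct to 0.000173 for Si). For the transporters it was 5.36 ± 0.66 for Slc5a1, 7.0 ± 0.65 for Slc2a5 and 6.19 ± 0.50 for Slc2a2, and for Khk it was 4.61 ± 0.54 (edgeR, adjusted p from 2.66e-07 to 1.18e-05). The value of Slc2a5 exceeds both rats taken singly (5.93 and 6.14 with a prior count of 2), and 2 secretory classes had 0 UMIs of it in each rat, so that its size depends on the prior count. With the size factors of DESeq2, the median of all genes moved from 0.11 to -0.23 and the share of calls that were higher in enterocytes from 66.6% to 43.3%. All 8 genes were called higher under either scaling.

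**Figure D2:**
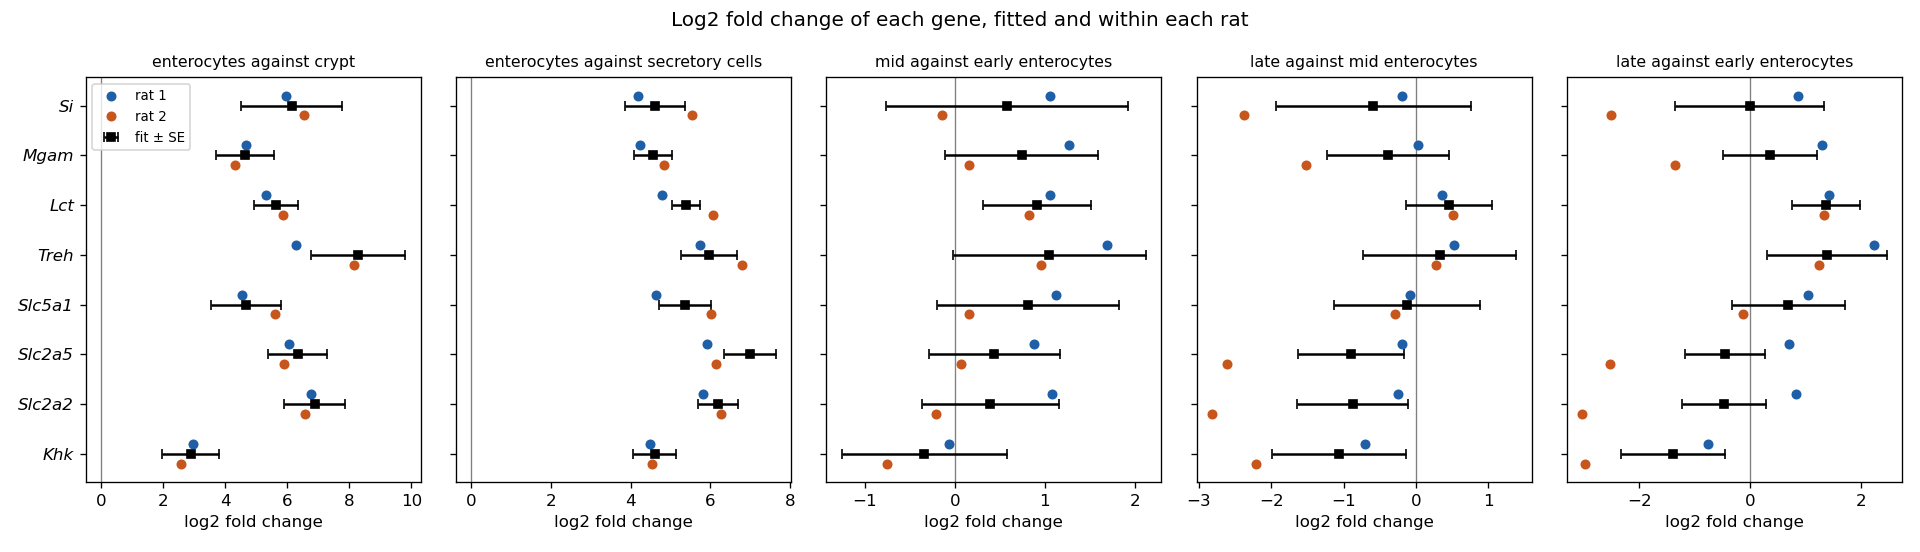
Log2 fold change of each gene in the 5 comparisons. Black squares with bars are the edgeR fit ± SE, and colored points are the difference within each rat (log2 CPM on the TMM scale, with a prior count of 2). Points of both rats lie on the same side of 0 for all genes in the first 2 panels and on opposite sides for Si, Mgam, Slc5a1, Slc2a5 and Slc2a2 in the comparison of late with early enterocytes.

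Within the enterocytes, the 8 genes did not share a course. Late against early enterocytes gave 91 called genes (0.984% of 9251) and none of the 8, whose median log2 fold change was 0.18 against -0.03 for all genes. Mid against early and late against mid enterocytes gave 0 called genes by edgeR and 2 and 3 by DESeq2. At an unadjusted edgeR p under 0.05 there were 279 (3.02%) and 465 (5.03%) of the 9251 genes. Counts were also simulated for the same classes and 2 rats, with independent sums and no rat effect. In them, late against early recovered 27.0% of changes of 2 on the log2 scale and 100% of changes of 4. Changes of 2 were thus mostly missed in such counts. The reach in the real sums, which the rats pair, was not measured. The rats pair the enterocyte groups, and with the rat as a block 1958 genes (21.2%) were called between late and early enterocytes, 965 of them lower (10.4%). With the block the median of the 8 genes turned to -0.46, against -0.04 for all genes, so its sign depends on the fit. Khk was then called lower in late enterocytes, by -1.87 ± 0.57 (SE, edgeR, adjusted p = 0.0285), and without the block the value was -1.40 ± 0.94 (adjusted p = 0.402). Lct (1.37 ± 0.53, adjusted p = 0.0769) and Treh (1.64 ± 0.63, adjusted p = 0.0741) did not pass the threshold with the block, although both were higher in late than early enterocytes in 2 of 2 rats.

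For Si, Mgam, Slc5a1, Slc2a5 and Slc2a2 the fitted difference between late and early enterocytes stands between 2 rats whose differences had opposite signs. In CPM of rat 1, late enterocytes exceeded early ones by 1.33-fold for Si, 1.80-fold for Mgam, 1.51-fold for Slc5a1, 1.19-fold for Slc2a5 and 1.30-fold for Slc2a2. In CPM of rat 2, late enterocytes were lower than early ones by 9.65-fold for Si, 4.31-fold for Mgam, 1.83-fold for Slc5a1, 9.90-fold for Slc2a5 and 13.8-fold for Slc2a2. Khk was lower in late enterocytes of both rats, by 2.33-fold in rat 1 and 13.3-fold in rat 2. Lct was higher by 1.96-fold and 1.5-fold, and Treh by 3.45-fold and 1.40-fold. The signs of all 8 genes in each rat were the same on the TMM scale, where Slc5a1 in rat 2 differed by only -0.12 (log2). The difference between the rats was not tested, because each rat is 1 library. The groups were cut by rank within each rat, so the same name need not mark the same stage in both. The median share of ribosomal protein transcripts was 7.38% in early and 1.23% in late enterocytes of rat 1. In rat 2 it was 2.36% and 0.33%.

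The profile over 10 equal bins of enterocytes showed the course within each rat. Bins were cut within each rat, so bin numbers are not matched between the rats. The median share of ribosomal protein transcripts was 0.93% in bin 10 of rat 1 and 0.94% in bin 5 of rat 2. In these 2 bins Si was at 671 and 770 CPM, Mgam at 809 and 867 and Lct at 1331 and 1699. The other genes lay further apart, with Treh at 147 and 548 CPM and Slc2a2 at 233 and 485. Slc2a5 was at 62.1 and 134 CPM, Khk at 177 and 380 and Slc5a1 at 200 and 134. Whether stage accounts for the difference between the rats was not tested. In rat 1, Si was at 574 CPM in bin 1, 1795 CPM in bin 7 and 671 CPM in bin 10. In rat 2, Si was at 846 CPM in bin 1, peaked at 946 CPM in bin 2 and was at 124 CPM in bin 8 and 48.7 CPM in bin 10. Slc2a2 and Slc2a5 had their peaks in the same bins as Si, bin 7 in rat 1 and bin 2 in rat 2. Slc2a2 was 2.68-fold below its peak in bin 10 of rat 1 and 30.9-fold below it in rat 2, or 57.2-fold when cells were ordered by a falling share of ribosomal protein transcripts (15 UMIs in bin 10). Slc2a5 was at 136 CPM in its peak bin of rat 2 and 5.04 CPM (9 UMIs) in bin 10.

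Mgam peaked in bin 7 of rat 1 (1607 CPM) and in bin 3 of rat 2 (963 CPM), with 809 and 121 CPM in bin 10. Of the transporters, Slc5a1 had the smallest difference between its peak and bin 10 in rat 2, at 151 CPM in bin 4 and 63.2 CPM in bin 10, or 2.38-fold. Its peak in rat 1 was bin 8 (441 CPM) when cells were ordered by the villus program and bin 6 under the ribosomal order. For the other 7 genes and for Slc5a1 in rat 2, the peak moved by at most 1 bin between the 2 orders. Khk was highest at the start of the series, at 987 CPM in bin 2 of rat 1 and 828 CPM in bin 1 of rat 2, and reached 177 and 20.7 CPM in bin 10.

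Lct and Treh were 1.15-fold to 1.40-fold below their peaks in bin 10, less than the other 6 genes in the same rat (villus program order). Lct went from 493 CPM in bin 1 to 1685 in bin 9 and 1331 in bin 10 of rat 1, and from 977 CPM in bin 1 to 1927 in bin 7 and 1543 in bin 10 of rat 2. Treh went from 15.1 CPM to 169 in bin 9 and 147 in bin 10 of rat 1, and from 218 CPM to 621 in bin 7 and 443 in bin 10 of rat 2. The ratio of Lct to Si UMIs was 0.86 in bin 1 and 1.98 in bin 10 of rat 1, and 1.15 in bin 1 and 31.7 in bin 10 of rat 2. The ratio of Khk to Si UMIs moved the other way in both rats, from 1.61 to 0.26 and from 0.98 to 0.43. Such ratios compare bins and not the abundance of different genes.

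**Figure D3:**
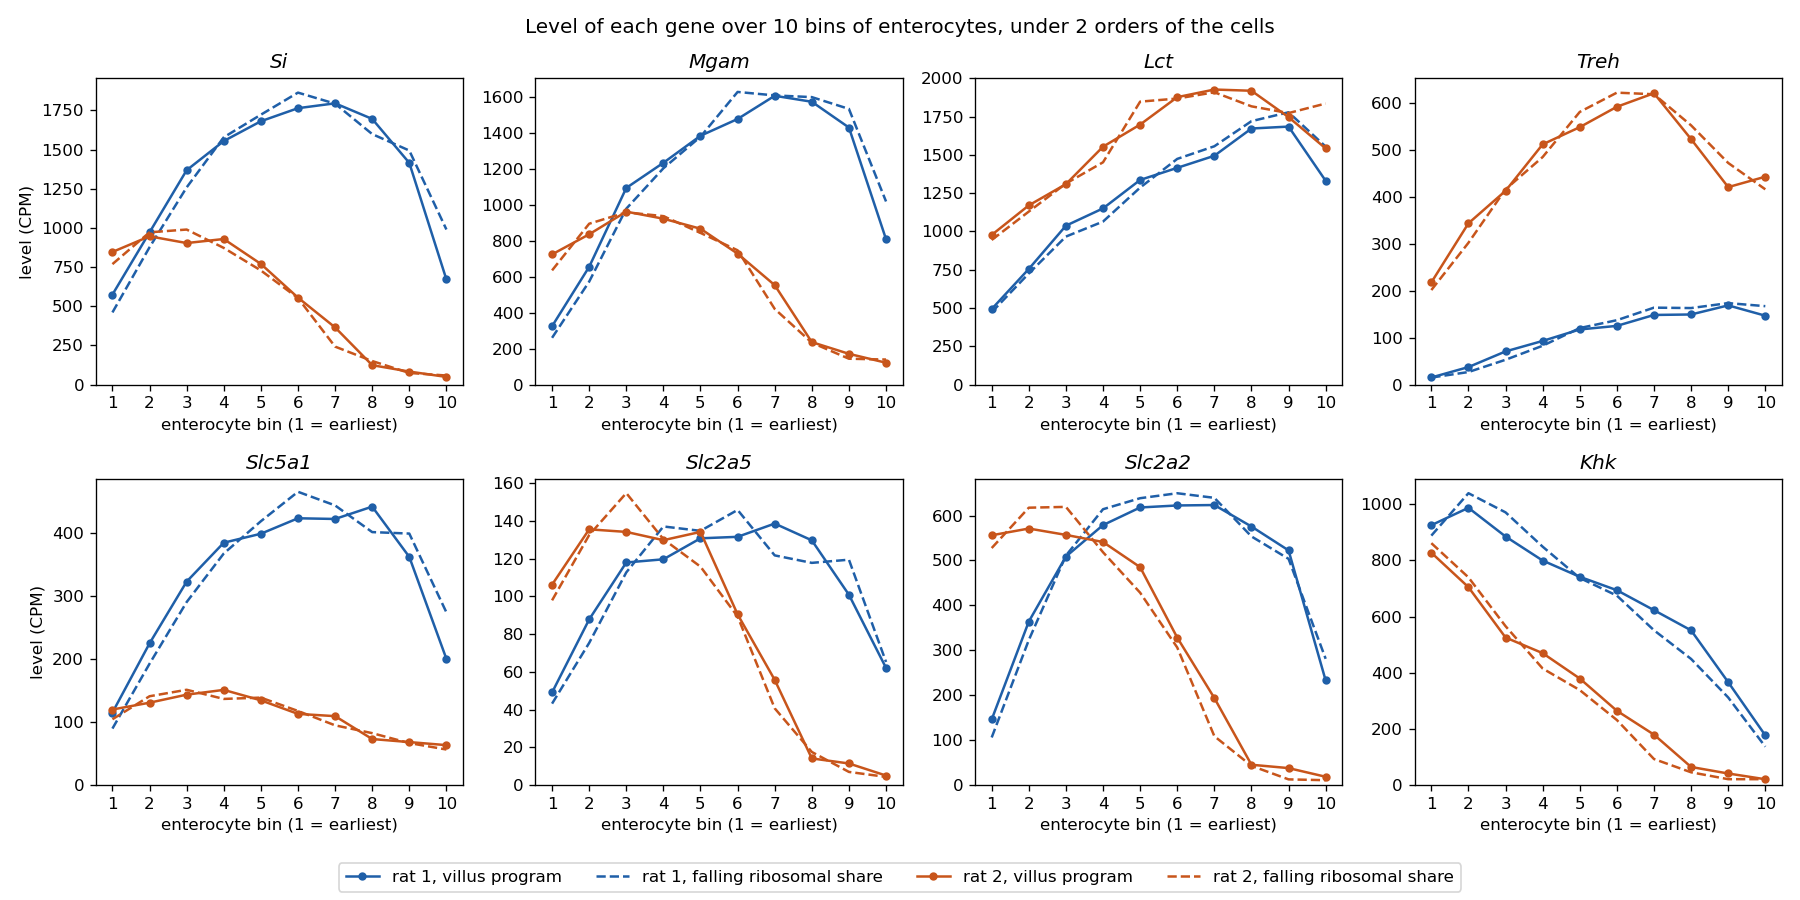
Level of each gene (CPM, linear axis from 0) over 10 equal bins of enterocytes of each rat, ordered by the villus program (solid lines) or by a falling share of ribosomal protein transcripts (dashed lines). In rat 1 Si, Mgam, Slc5a1, Slc2a5 and Slc2a2 peak in bins 7 and 8 under the villus program and are lower in bin 10, in rat 2 they are low from bin 8 on, and Lct and Treh are in bin 10 within 1.40-fold of their peaks in both rats under that order.

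Depth and RNA composition moved with the low late levels of rat 2. From early to late enterocytes, the median UMI count per cell went from 30000 to 14622.5 in rat 2 and from 12316 to 11527 in rat 1, and the median mitochondrial share from 23.7% to 28.4% in rat 2 and from 14.8% to 13.0% in rat 1. All 5 leukocyte markers had UMIs in the early, mid and late groups of both rats, and their sum in early and late cells was 235 and 1949 CPM in rat 1 and 221 and 946 CPM in rat 2, a list that includes Cd74, which is also made by enterocytes. The median mitochondrial share was above 20% in early, mid (25.1%) and late enterocytes of rat 2, so a limit of 20% left out most of them. The groups were then cut again among the remaining cells, whose number is not given here. Under this limit, late enterocytes of rat 2 were again lower than early ones, by -3.28 for Si, -3.36 for Slc2a2, -2.82 for Slc2a5, -3.62 for Khk and -1.15 for Mgam on the log2 TMM scale, while Lct was higher by 1.39 and Treh by 1.60. Slc5a1 differed by 0.01 under that limit. The part of depth in these differences was not tested beyond these values.

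Shares of cells with a UMI were compared at equal depth. After thinning to 5000 UMIs, 93.9% of early and 88.4% of late enterocytes of rat 1 had a Si UMI, against 95.04% and 25.5% in rat 2. In rat 1 the Si share was thus lower in late cells although the level in CPM was higher, and no order is read from it. For Slc2a2 the shares were 70.9% and 78.2% in rat 1 and 91.2% and 9.07% (6.32 to 12.5) in rat 2, the last against 5.65% of background cells. For Lct they were 92.5% and 98.5% in rat 1 and 97.5% and 98.9% in rat 2. Treh was seen in 18.3% and 52.3% of early and late enterocytes of rat 1 and in 76.0% and 87.1% of those of rat 2. Khk was seen in 98.3% and 65.6% in rat 1 and in 90.4% and 17.0% in rat 2. Without thinning, the Si shares were 99.0% and 92.2% in rat 1 and 98.9% and 46.7% in rat 2, and the Treh shares were 37.7%, 77.0%, 99.2% and 97.5% in the same order.

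**Figure D4:**
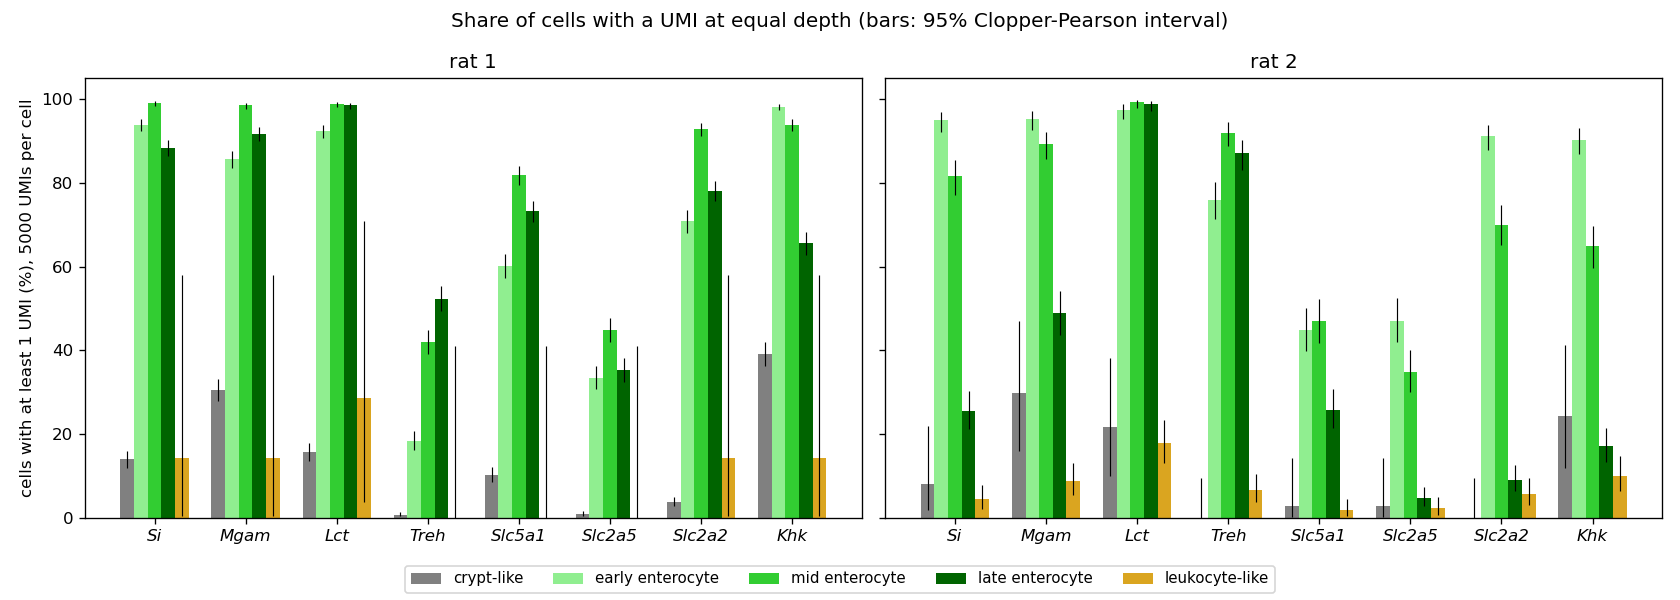
Share of cells with at least 1 UMI after thinning each cell to 5000 UMIs, for crypt-like cells, the 3 enterocyte groups and leukocyte-like cells with at most 10 epithelial UMIs; error bars are exact 95% Clopper-Pearson intervals. In late enterocytes of rat 2, Lct (98.9%) and Treh (87.1%) stay high while Si (25.5%), Khk (17.0%) and Slc2a2 (9.07%) are low.

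Likeness of course was measured as the Pearson correlation of log2 (CPM + 1) over the 10 bins within each rat, a description over bins that share a library and its order. Si and Slc2a2 correlated at 0.98 in rat 1 and 1.00 in rat 2, and Si and Slc2a5 at 0.99 and 1.00. Lct and Treh correlated at 0.99 and 0.92. Si and Lct correlated at 0.72 in rat 1 and -0.45 in rat 2, and Khk and Si at 0.22 and 0.99, so that these pairs had no common course across the animals. Among 9233 other genes, the 3 most like each of the 8 in the less similar of the 2 rats were searched. They were Cndp2, Clic5 and Ldb3 for Si, Slc43a2, Hsd17b2 and Vil1 for Mgam, Abhd1, RT1-Db1 and RT1-Ba for Lct, and Ms4a10, Acsf2 and Slco2a1 for Treh. For the transporters they were Dbp, Gchfr and AC099449.1 for Slc5a1, Cyp4f1, Clic5 and Dlst for Slc2a5, and Gchfr, Ldb3 and Dlst for Slc2a2. For Khk they were Bpnt1, Cox7b and Atp5f1b. The correlations of these genes were between 0.98 and 1.00 in each rat.

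The other genes of sugar handling were read as fixed lists in the same fits. Their counts stand beside the share of all genes called, which was 49.9% against crypt-like cells and 37.3% against secretory cells. Of 6 tested genes of fructose and polyol metabolism, 2 were higher in enterocytes than in crypt-like cells and 2 were lower. Tkfc, the triokinase that phosphorylates glyceraldehyde from fructose, was higher by 3.19 ± 0.69 on the log2 scale (SE, edgeR, adjusted p = 0.00153). Sord, which makes fructose from sorbitol, was lower by -4.11 ± 0.74 (adjusted p = 0.000363), a size outside both rats taken singly (-2.91 and -2.66), with at most 0.43 CPM in any enterocyte group. With the rat as a block, 4 of the 6 were lower in late than in early enterocytes, where 10.4% of all genes were, and none was called without the block. They were the triokinase Tkfc (-1.42 ± 0.46, edgeR, adjusted p = 0.0391), the glycerate kinase Glyctk (-2.13 ± 0.51, adjusted p = 0.00913), the aldose reductase Akr1b1 (-2.27 ± 0.62, adjusted p = 0.0169) and Aldh1a1, also known as a retinaldehyde dehydrogenase (-2.74 ± 0.53, adjusted p = 0.00335). Khk, the kinase upstream of Tkfc, was called lower under the same fit. The calls of that fit were not confined to this list. Pkm of glycolysis (-1.67 ± 0.50, edgeR, adjusted p = 0.0267) and Slc37a4 of glucose release (-1.17 ± 0.40, adjusted p = 0.0489) were lower. Pck1 of gluconeogenesis was higher (2.27 ± 0.74, edgeR, adjusted p = 0.038).

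Of 7 tested genes of other sugar transporters, 4 were higher and 1 lower in enterocytes than in crypt-like cells. Slc5a11 (5.50 ± 0.90, edgeR, adjusted p = 0.000175), Slc5a9 (5.28 ± 1.01, adjusted p = 0.000618) and Slc5a4 (4.43 ± 0.93, adjusted p = 0.00226), relatives of SGLT1 in the same sodium-coupled family, were among the higher ones. Against secretory cells, Slc2a1, the basal glucose transporter GLUT1, was lower in enterocytes by -5.84 ± 0.59 (edgeR, adjusted p = 1.67e-06). This size is outside both rats taken singly (-4.52 and -5.22). In rats 1 and 2 it was at 54.3 and 115 CPM in goblet-like, 13.5 and 144 in tuft-like and 37.2 and 48.4 in CHE-like cells. Goblet/Paneth-like cells had 13.5 and 27.0 CPM and EEC-like cells 22.2 and 19.2 CPM. No enterocyte group was above 1.53 CPM. Of the beta subunits of the sodium pump that sustains SGLT1, Atp1b1 was higher in enterocytes than in crypt-like cells by 2.65 ± 0.60 (edgeR, adjusted p = 0.0022) and Atp1b3 was not called.

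For galactose, 3 of 6 genes were higher in enterocytes than in crypt-like cells and none was lower, with Galm, the mutarotase, at 1.78 ± 0.62 (SE, edgeR, adjusted p = 0.0255), Ugp2 at 1.23 ± 0.34 (adjusted p = 0.00807) and Galt at 1.39 ± 0.54 (adjusted p = 0.0421). These sizes are near the TMM shift of that comparison (0.67 in rat 1 and 1.23 in rat 2), so that on the CPM scale the differences are smaller. Galt lost its call under DESeq2 (adjusted p = 0.0832), under the 20% mitochondrial limit (0.0686), with all variable genes (0.0519) and under the ribosomal order (0.0622). For gluconeogenesis and glucose release 5 of 8 were higher and 1 was lower. Pck1, the cytosolic phosphoenolpyruvate carboxykinase, was higher by 6.92 ± 1.10 (edgeR, adjusted p = 0.00014) and Pck2, its mitochondrial form, was lower by -4.26 ± 0.53 (adjusted p = 2.35e-05). For glycolysis 5 of 15 were higher (9 with the rat as a block) and 2 were lower, including Pklr (3.13 ± 0.61, edgeR, adjusted p = 0.000676), Eno1 (2.65 ± 0.55, adjusted p = 0.00104) and Hk2 (-2.67 ± 0.58, adjusted p = 0.00159).

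Of 11 tested regulators, Hnf4g alone was called between enterocytes and crypt-like cells, higher by 2.39 ± 0.80 (SE, edgeR, adjusted p = 0.0211). Against secretory cells 6 of the 11 were higher (9 with the block) and 1 was lower, including Hnf4g (3.96 ± 0.52, edgeR, adjusted p = 1.96e-05). Cebpa was higher by 2.28 ± 0.38 (adjusted p = 0.000206) but by 0.94 (adjusted p = 0.079) against goblet classes alone. None of the 2 tested genes of other alpha-glucosidases was called in either comparison. No gene of any of these lists was called in the comparisons among early, mid and late enterocytes without the block.

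UMIs of each gene were also summed over the 10 classes of the model, which leave out the unnamed cluster and its 3393 Khk UMIs of rat 1. In rat 1, crypt-like cells contributed between 0.511% of these UMIs for Treh and 6.82% for Khk. In rat 2, with 37 crypt-like cells, they contributed at most 0.546%. Late enterocytes held 31.1% of Si UMIs and 39.8% of Lct UMIs in rat 1 and 3.36% of Si UMIs and 26.9% of Lct UMIs in rat 2. These shares depend on how many cells of each class were captured.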

How the data were processed

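Epithelium of the proximal jejunum of 2 rats was profiled by 10x 3′ single-cell RNA sequencing. The authors deposited raw UMI counts per gene and barcode, made with Cell Ranger against Rnor6 without normalization; per the file headers the versions were 3.1.0 (rat 1) and 5.0.1 (rat 2), and version and rat cannot be told apart. Cells with over 200 and under 5800 genes, over 5000 UMIs and at most 40% mitochondrial UMIs were retained. Clustering after integration used Seurat 5.3.0 under R 4.3.3 (2000 variable genes, 20 components, resolutions 0.3 and 0.5). Classes were named from marker lists, with naming thresholds set after the clusters were seen, so names may differ from the study's. Cells of epithelial clusters with at most 10 epithelial UMIs were left out.

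The 8 genes, the marker and pathway lists and the villus program were chosen with earlier results of these data known. Doublets were kept. Scrublet called 1.94% of rat 1 but only 0.224% of rat 2, and whether it missed doublets there was not checked. UMIs were summed per rat and class and tested with edgeR 4.0.16 (TMM, filterByExpr, quasi-likelihood, Benjamini-Hochberg, threshold 0.05) in 1 model of 10 classes. The rat is the same animal in every class, so it pairs the sums; over 45 pairs of classes the between-rat deviations correlated at a median of 0.23 (0.08 to 0.81). Tested on simulated data with no rat effect and log2 changes of 2, the fit recovered 61.1% against crypt, 27.0% for late against early and 82.1% against secretory cells. Of pathway genes, at most 3 per list and comparison with the largest change and 1 direction in both rats are named; those called only with the block were named after their values were seen. Alternatives comprised DESeq2 1.42.0, no filter, the block, other cell filters and clusterings, doublet removal, other cuts and a ribosomal order. Some genes of these lists are not reported here.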

Additional observations from a re-analysis of the deposited data

How the results depend on the processing

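All 8 genes were called higher in enterocytes than in crypt-like cells and than in secretory cells under every alternative run, including goblet classes alone as secretory cells, an alternative chosen after seeing the data. Counts within the enterocytes moved. Late against early enterocytes gave 91 calls, and 569 with DESeq2, 919 without a filter, 1958 with the rat as replicate block (1 of the 8 genes, Khk), 418 without integration, 47 with all variable genes, 396 with a pooled cut, 475 under the ribosomal order and 24 with cells without epithelial transcripts kept, the last chosen after seeing the data. Mid against early gave 0 calls, and 2 with DESeq2, 33 without a filter, 17 with the block and 1 under the ribosomal order. Late against mid gave 0 calls, and 3 with DESeq2, 169 without a filter and 87 with the block. The cause was not tested. Between late and early enterocytes, Si (-0.010) turned to 0.020 without a filter, 0.034 without doublets, 0.13 with the pooled cut and 0.22 under the ribosomal order, and Mgam (0.36) to -0.11 with the block, none of them past the threshold. The block changed no other call of the 8 genes. Without integration and with all variable genes, no tuft class was in the model. Leaving out 1 rat leaves no residual degrees of freedom, so this gave fold changes with no test. Depth limits the crypt-like cells of rat 2, where Slc2a5 had 1 UMI.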
